A study of Mus musculus with 6 samples.

Results

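The genes described here encode collagen chains and other proteins of the extracellular matrix, many of them made by mesenchymal cells. Their transcripts were measured by RNA-seq in mouse primary microglia (PM). All symbols of the form Col, number, a, number were taken (44 collagen chain genes), with the 13 matrix genes Dcn, Lum, Fn1, Sparc, Mgp, Prg4, Fbln1, Fbln2, Fbn1, Postn, Bgn, Igfbp7 and Lox, which gives 57 of the 24411 genes in the count tables. The rule itself uses symbols and no measured value. The 6 libraries fall into 2 groups, 3 of PM given GSK-J4 at 10 μM alone and 3 given LPS at 10 ng/ml together with the same dose of GSK-J4, and the time was 4 h in both. GSK-J4 inhibits the jumonji demethylases that remove methyl groups from lysine 27 of histone H3, and LPS (lipopolysaccharide) is the bacterial ligand of TLR4. All 6 libraries thus carry GSK-J4, and the comparison asks how the matrix genes stood after LPS in its presence. Cells without GSK-J4 were not analysed here. The study's methods describe PM shaken off mixed glial cultures after 2 weeks, grown from the pooled brains of 12 ICR mice at postnatal day 3, with vessels and meninges removed by dissection. The methods call the samples of a treatment biological replicates and also state that most of the cells obtained were microglia by flow cytometry of CD11b. Neither they nor the labels say whether the libraries of a group came from separate pools of mice, and the p-values measure the spread between these libraries.

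Collagens are triple-helical proteins. The fibrillar types (I, II, III, V and XI) build the fibres of connective tissue, type IV builds the network of basement membranes, type VI forms beaded microfibrils, and FACIT collagens (types XII, XIV, XVI and others) bind to the surface of fibres. Fibronectin, the fibulins, the small leucine-rich proteoglycans and lysyl oxidase assemble, decorate and cross-link these structures. In brain many of these genes, but not all, are expressed mainly by meningeal and perivascular fibroblasts, mural cells and endothelial cells. Fibronectin, for example, is also made by cultured glia.

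The libraries held 2597505 to 3472716 fragments on genes, and the matrix genes took 0.161 to 0.325% of them. A level of 3 counts stood at 0.673 to 1.24 CPM (counts relative to the library total, which was adjusted by the TMM method of edgeR). The ribosomal RNA gene Rn45s took 22.2 to 32.4% of the fragments under GSK-J4 and 45.8 to 48.1% under LPS + GSK-J4. A list of 12 microglial markers summed to 3463 to 3596 CPM in GSK-J4 and 2752 to 2877 CPM in LPS + GSK-J4, above the sum of the matrix genes in every library but LPS + GSK-J4 replicate 3, where the matrix genes summed to 3985 CPM.

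GSK-J4 replicate 1 and LPS + GSK-J4 replicate 3 stood apart from the other libraries of their groups in the matrix genes. Summed over the members without Fn1 and Lox, which have the highest levels, GSK-J4 replicates 1, 2 and 3 held 1121, 525 and 650 CPM. LPS + GSK-J4 replicates 1, 2 and 3 held 939, 1315 and 2137 CPM. The first GSK-J4 library therefore lay above the first LPS + GSK-J4 library, and the groups overlapped in this sum. With Fn1 and Lox the sums were 2001, 1295 and 1530 CPM against 2198, 2696 and 3985 CPM, and the groups did not overlap. Results are given with all 6 libraries, and the counts also without these 2. That choice was made after the values of these genes were seen, so p-values from the remaining 4 libraries describe those libraries and are no independent evidence.

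Of the 57 genes, 37 had enough counts to be tested (24 collagen chains and all 13 other matrix genes) among 10133 genes tested. By the quasi-likelihood test of edgeR, 1 of them was up-regulated and 0 were down-regulated in LPS + GSK-J4 against GSK-J4 at an adjusted p ≤ 0.01 and a log2 fold change ≥ 1.5 in size. Over all genes tested, the same thresholds called 3.76%, with 2.95% up-regulated and 0.809% down-regulated, so the count of matrix genes called lay near the share of all genes. At an adjusted p ≤ 0.05 and any fold change, 17 of the 37 rose and 0 fell, where 13.7% of all genes rose and 9.91% fell. The log2 fold change was positive for 33 and negative for 4 of the 37, with a median of 0.95, beside 50% positive and a median of -0.00064 over all genes. The groups did not overlap in 15 of the genes that were higher in LPS + GSK-J4 and in 1 that was lower, and over all genes 19.8% were higher and 18.4% lower without overlap. The filter on low counts asks for the minimum in 3 libraries, which a single group can meet, so these counts describe the 37 genes tested and not all 57. Without GSK-J4 replicate 1 and LPS + GSK-J4 replicate 3, 23 of 37 genes rose and 0 fell at an adjusted p ≤ 0.05, where 12.3% and 9.42% of all genes did, and 12 of the 23 were among the 17. The filter then let Col11a1 pass and not Col11a2. The log2 fold change was positive for 34 of the 37, beside 49.6% of all genes, and the stricter thresholds called 3 genes higher (Col1a2, Col6a3 and Fbln2) and 0 lower, beside 3.1% and 1.08% of all genes (4.19% together). The genes lost were Col27a1, Col4a6, Col5a1, Col5a2 and Col7a1. The 11 gained were Col11a1, Col1a2, Col3a1, Col4a1, Col4a2, Col6a1, Col6a2, Col6a3, Dcn, Fbn1 and Lum.

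**Figure D1:**
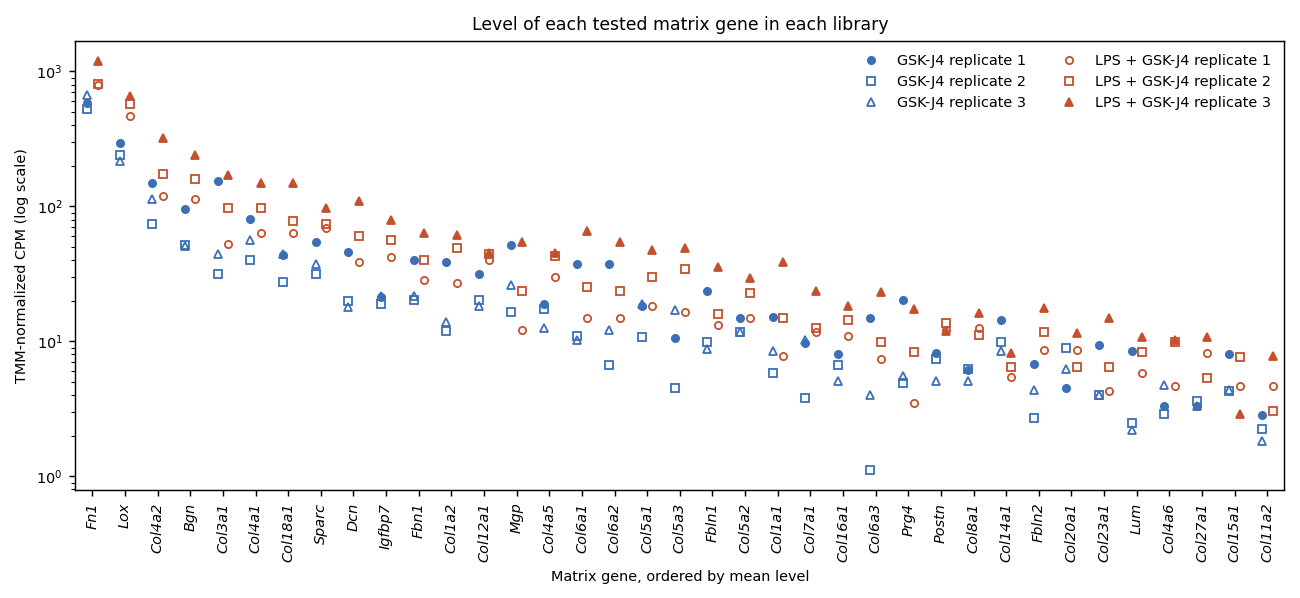
TMM-normalised CPM (log scale) of the 37 tested matrix genes in each of the 6 libraries, ordered by mean level, with GSK-J4 in blue and LPS + GSK-J4 in red and with filled symbols for GSK-J4 replicate 1 and LPS + GSK-J4 replicate 3. The filled red triangle is the highest of its group in 35 genes and the filled blue circle the highest of its group in 27.

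**Figure D2:**
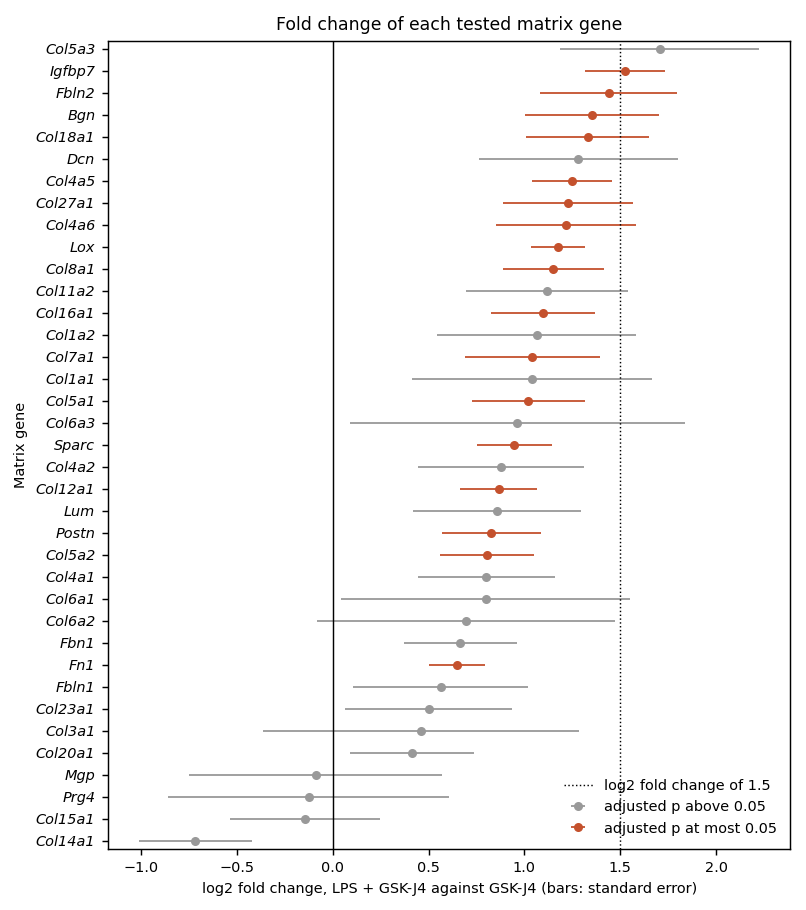
Log2 fold change of LPS + GSK-J4 against GSK-J4 for the 37 tested matrix genes, with standard errors as bars and with the 17 genes of adjusted p ≤ 0.05 in red. The values run from -0.72 (Col14a1) to 1.71 (Col5a3), and of the genes in red Igfbp7 alone lies past the dotted line at 1.5.

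Igfbp7, which encodes a secreted protein that binds insulin-like growth factors and is found in vascular basement membranes, was the gene up-regulated past both thresholds. Its levels were 21.2, 19.1 and 21.6 CPM in GSK-J4 and 42.1, 56.5 and 79.7 CPM in LPS + GSK-J4. The GSK-J4 libraries were close to each other, with a coefficient of variation (CV) of 6.65%, and the groups did not overlap. The log2 fold change was 1.53 (standard error 0.21, adjusted p = 5.85e-05), just inside the threshold. It was 1.26 without LPS + GSK-J4 replicate 3, 1.46 without GSK-J4 replicate 2 and 1.29 without GSK-J4 replicate 1 and LPS + GSK-J4 replicate 3 together, so the call was lost in these cases while the adjusted p stayed at most 0.000369. The gene lies on mm10 chromosome 5, 77349240 to 77408041, on the minus strand.

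Fn1 encodes fibronectin, an adhesive glycoprotein of the matrix and of plasma, and had the highest level in CPM (mm10 chromosome 1, 71585520 to 71653200). Its levels were 585, 531 and 664 CPM in GSK-J4 and 790, 809 and 1192 CPM in LPS + GSK-J4. The groups did not overlap, and Fn1 rose by 0.65 on the log2 scale (standard error 0.15, adjusted p = 0.00419). Lox encodes lysyl oxidase, the enzyme that starts the cross-linking of collagen and elastin, and had 295, 239 and 216 CPM in GSK-J4. In LPS + GSK-J4 it had 469, 572 and 657 CPM, again without overlap, a rise by 1.18 on the log2 scale (standard error 0.14, adjusted p = 1.67e-05). GSK-J4 replicate 1 was not the highest of its group for Fn1, and it was for Lox. Per kb of the principal transcript, Fn1 and Lox stood at 71.4 and 52.7 CPM per kb in GSK-J4 and at 112 and 119 CPM per kb in LPS + GSK-J4.

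The basement membrane chains of type IV collagen separated into a group with high levels and large spread and a group with low levels and smaller spread. Col4a2 had 149, 73.8 and 114 CPM in GSK-J4 and 119, 175 and 324 CPM in LPS + GSK-J4. Col4a1 had 80.5, 40.4 and 56.8 CPM in GSK-J4 and 63.6, 96.5 and 150 CPM in LPS + GSK-J4. For both, the lowest LPS + GSK-J4 library lay below GSK-J4 replicate 1, and neither passed the test (log2 fold changes 0.88, adjusted p = 0.216, and 0.80, adjusted p = 0.161, by edgeR). Without LPS + GSK-J4 replicate 3 these values were 0.40 and 0.44. Col4a1 passed at 0.05 without GSK-J4 replicate 1 (adjusted p = 0.0124) or LPS + GSK-J4 replicate 1 (adjusted p = 0.0110). Col4a5 had 18.9, 17.5 and 12.5 CPM against 30.1, 42.7 and 45.4 CPM and rose by 1.25 on the log2 scale (standard error 0.21, adjusted p = 0.000379). Col4a6 had 3.30, 2.92 and 4.77 CPM against 4.68, 9.92 and 10.3 CPM and rose by 1.22 (adjusted p = 0.0228), with an overlap of 1 library in each group. Col4a6 was lost at an adjusted p of 0.05 when GSK-J4 replicate 1 or 2 or LPS + GSK-J4 replicate 2 or 3 was left out, and by the DESeq2 Wald test (adjusted p = 0.100). Col4a3 and Col4a4, the chains of the kidney and lung basement membranes, had 12 and 2 counts in all 6 libraries.

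Type IV genes lie head to head in pairs, and the paired genes of highest level kept their ratio across all libraries. Per kb, Col4a2 stood at 1.86 to 2.21 times Col4a1 in each of the 6 libraries, with means of 1.94 ± 0.0967 under GSK-J4 and 2.00 ± 0.187 under LPS + GSK-J4 (SD, n = 3), although Col4a2 itself varied from 73.8 to 324 CPM. The ratio of Col4a5 to Col4a6 ran from 2.66 to 6.53, at far lower counts. The annotated starts of Col4a2 and Col4a1 on chromosome 8 overlap by 21 bases, those of Col4a3 and Col4a4 lie 72 bases apart on chromosome 1, and those of Col4a5 and Col4a6 lie 1309 bases apart on the X chromosome. The windows from 250 bases before to 50 bases after the starts of Col4a1 and Col4a2 are shown because the levels of these chains varied together over the libraries. They come from RefSeq (GRCm38.p6), run 5′ to 3′ on the strand of each gene, and have the GC box GGGCGG and the CCAAT box CCAAT, on either strand, in capitals. The Col4a1 window is chr8:11312777-11313076 on the minus strand and the Col4a2 window chr8:11312555-11312854 on the plus strand.
Col4a1: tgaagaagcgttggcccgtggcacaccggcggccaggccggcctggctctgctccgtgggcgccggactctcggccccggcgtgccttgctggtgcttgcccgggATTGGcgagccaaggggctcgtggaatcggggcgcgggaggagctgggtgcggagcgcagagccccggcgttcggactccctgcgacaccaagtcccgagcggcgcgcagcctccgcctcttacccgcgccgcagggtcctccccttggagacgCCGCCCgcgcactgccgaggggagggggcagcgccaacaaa
Col4a2: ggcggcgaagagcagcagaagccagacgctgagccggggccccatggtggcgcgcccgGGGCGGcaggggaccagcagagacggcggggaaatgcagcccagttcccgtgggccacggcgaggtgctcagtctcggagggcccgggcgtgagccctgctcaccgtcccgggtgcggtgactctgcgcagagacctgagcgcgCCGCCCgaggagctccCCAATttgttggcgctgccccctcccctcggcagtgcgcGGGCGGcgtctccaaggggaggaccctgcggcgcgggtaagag
The windows share 78 bases, which hold 1 GC box and no CCAAT box, and neither window holds the TATA box TATAAA. A match of these letters is a description and not a binding site.

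The fibrillar collagen genes had log2 fold changes from 0.46 to 1.71, positive in all 8 tested, and 3 of them rose at adjusted p ≤ 0.05. Col3a1, the chain of type III collagen in reticular fibres (mm10 chromosome 1, 45311538 to 45349706), had 154, 31.6 and 44.4 CPM in GSK-J4 and 52.3, 96.5 and 172 CPM in LPS + GSK-J4. The groups overlapped almost fully, and the CV was 87.8% under GSK-J4 and 56.7% under LPS + GSK-J4. Its log2 fold change of 0.46 (standard error 0.82) had an adjusted p of 0.755. Without LPS + GSK-J4 replicate 3 it was -0.0641, without GSK-J4 replicate 1 it was 1.5 (adjusted p = 0.0391 by edgeR), and without both it was 1.00 (adjusted p = 0.00126). Col5a1, a chain of the type V collagen that starts fibril growth, had 18.2, 10.8 and 19.1 CPM against 18.3, 30.1 and 47.9 CPM and rose by 1.02 on the log2 scale (adjusted p = 0.0200). Col5a2, its partner chain, had 14.9, 11.7 and 11.7 CPM against 14.8, 22.9 and 29.7 CPM and rose by 0.80 (adjusted p = 0.0258). In both, LPS + GSK-J4 replicate 1 lay at the level of the GSK-J4 libraries. Both lost the adjusted p of 0.05 without LPS + GSK-J4 replicate 2 or 3 or GSK-J4 replicate 2, and Col5a2 also without GSK-J4 replicate 3 and by the DESeq2 Wald test (adjusted p = 0.0801). Col27a1, a short-fibril chain of cartilage, had 3.30, 3.59 and 3.30 CPM against 8.20, 5.34 and 10.7 CPM without overlap and rose by 1.23 (adjusted p = 0.0149). It did not pass the test without LPS + GSK-J4 replicate 3 or by the DESeq2 Wald test (adjusted p = 0.0814). The other 5 fibrillar genes tested, Col1a1, Col1a2, Col5a3, Col11a2 and Col3a1, did not pass the test. Col5a3 had the largest log2 fold change of the 37 genes (1.71, adjusted p = 0.0523) at 10.6, 4.49 and 17.2 CPM against 16.4, 34.3 and 49.5 CPM.

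The type VI chains, which are abundant products of fibroblasts, had CVs of 78.9 to 109% in GSK-J4 and 62.6 to 75.9% in LPS + GSK-J4. Col6a1 had 37.3, 11.0 and 10.3 CPM in GSK-J4 and 14.8, 25.2 and 65.2 CPM in LPS + GSK-J4. Col6a2 had 37.3, 6.73 and 12.1 CPM against 14.8, 23.7 and 54.5 CPM, and Col6a3 had 14.9, 1.12 and 4.03 CPM against 7.42, 9.92 and 23.1 CPM. In each of them GSK-J4 replicate 1 lay above LPS + GSK-J4 replicate 1, and the log2 fold changes of 0.80, 0.69 and 0.96 had standard errors of 0.75 to 0.87. Col7a1, the chain of anchoring fibrils, had 9.67, 3.82 and 10.3 CPM against 11.7, 12.6 and 23.5 CPM and rose by 1.04 (adjusted p = 0.0409), which was lost without GSK-J4 replicate 2, without LPS + GSK-J4 replicate 2 or 3, and by the DESeq2 Wald test (adjusted p = 0.0944).

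The FACIT, multiplexin and short-chain collagens held 4 more genes that rose. Col12a1, which bridges fibrils in dense connective tissue, had 31.6, 20.4 and 18.3 CPM in GSK-J4 and 39.8, 44.6 and 45.4 CPM in LPS + GSK-J4. It rose by 0.87 on the log2 scale (adjusted p = 0.00464), and its CV in LPS + GSK-J4 was 7.03%. Col16a1 had 8.02, 6.73 and 5.13 CPM against 10.9, 14.5 and 18.2 CPM and rose by 1.10 (adjusted p = 0.00775). Col18a1, the basement membrane chain from which endostatin is cleaved, had 43.9, 27.6 and 44.7 CPM against 63.6, 77.5 and 150 CPM and rose by 1.33 (adjusted p = 0.0162). Col8a1, a chain of the subendothelial network, had 6.13, 6.29 and 5.13 CPM against 12.5, 11.1 and 16.1 CPM and rose by 1.15 (adjusted p = 0.00455). In all 4 the groups did not overlap, and the adjusted p stayed below 0.05 in all 15 alternatives of processing and left-out libraries. Col14a1 lay the other way, with 14.4, 9.88 and 8.43 CPM against 5.46, 6.49 and 8.26 CPM and no overlap, but a log2 fold change of -0.72 that did not pass the test (adjusted p = 0.0918). Col20a1, Col15a1 and Col23a1 had log2 fold changes of 0.42, -0.14 and 0.50 and did not pass it either.

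Among the small leucine-rich proteoglycans, which coat collagen fibrils, Bgn (biglycan) had 96.0, 51.6 and 51.3 CPM in GSK-J4 and 113, 159 and 241 CPM in LPS + GSK-J4. The groups did not overlap, and Bgn rose by 1.35 on the log2 scale (standard error 0.35, adjusted p = 0.0300). Leaving out GSK-J4 replicate 2 or 3 or LPS + GSK-J4 replicate 2 or 3 raised the adjusted p above 0.05, up to 0.141. Dcn (decorin) had 46.0, 20.0 and 18.0 CPM against 38.6, 60.3 and 110 CPM, with GSK-J4 replicate 1 above LPS + GSK-J4 replicate 1, and did not pass the test (log2 fold change 1.28, adjusted p = 0.143). Without GSK-J4 replicate 1 the value was 1.86 (adjusted p = 0.00151 by edgeR), and without LPS + GSK-J4 replicate 3 it was 0.79 (adjusted p = 0.421). Lum (lumican) had at most 10.7 CPM in any library and a log2 fold change of 0.86 (adjusted p = 0.179).

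Of the other glycoproteins, Sparc, a collagen-binding protein of remodelling tissue, had 55.0, 31.4 and 37.8 CPM in GSK-J4 and 69.1, 74.0 and 97.5 CPM in LPS + GSK-J4 and rose by 0.95 (adjusted p = 0.00207). Fbln2, a fibulin of basement membranes and elastic fibres, had 6.84, 2.69 and 4.4 CPM against 8.59, 11.8 and 17.8 CPM and rose by 1.44 (adjusted p = 0.00768). Postn (periostin) had 8.26, 7.41 and 5.13 CPM against 12.1, 13.7 and 12 CPM and rose by 0.83 (adjusted p = 0.0288). None of these overlapped between the groups. Postn did not pass at 0.05 without GSK-J4 replicate 2 or 3 or LPS + GSK-J4 replicate 1 or 2, nor by the DESeq2 Wald test (adjusted p of 0.0502 to 0.141). Mgp, the matrix Gla protein that inhibits calcification, had 52.1, 16.6 and 26.0 CPM against 12.1, 23.7 and 54.5 CPM, and Prg4 (lubricin) had 20.3, 4.94 and 5.50 CPM against 3.51, 8.39 and 17.3 CPM. Their log2 fold changes were -0.09 (standard error 0.66) and -0.13 (standard error 0.73), and their range within a group was wider than the difference between the groups. Fbn1 and Fbln1 had log2 fold changes of 0.67 and 0.56 and did not pass the test.

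The 20 genes below the filter were all collagen chains, with summed counts over the 6 libraries of 0 to 50. Col11a1 had 50 counts, Col8a2 37, Col9a3 36, Col24a1 33 and Col28a1 25, followed by Col26a1 with 13 and Col4a3 with 12. The other 13 had at most 10, among them Col2a1, the main chain of cartilage, with 3, and Col10a1, a marker of hypertrophic cartilage, with 0. None of the 20 exceeded 6.19 CPM in any library. A count of 0 goes with an expected count of up to 3 in a library, so the absence of these transcripts cannot be read from these data.

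The spread between replicates was larger for the matrix genes than for genes in general. The median CV of the 37 tested genes was 34.5% under GSK-J4 and 40.2% under LPS + GSK-J4, where that of all genes tested was 13.7% and 18.1%. The chi-square of the counts per degree of freedom within a group, which is near 1 for counting error alone, had medians of 9.95 and 13.3 for the matrix genes and 1.41 and 1.72 for all genes. This statistic grows with the count of a gene. The median biological coefficient of variation from edgeR was 0.238 for the matrix genes and 0.135 for all genes. The type VI and VII chains had median CVs of 83.0% under GSK-J4 and 64.9% under LPS + GSK-J4, and the FACIT chains had 29.5% and 23.0%. In GSK-J4 the CV ran from 4.93% for Col27a1 and 6.65% for Igfbp7 to 109% for Col6a3.

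The spread had a shared direction. GSK-J4 replicate 1 was the highest library of its group in 27 of the 37 genes (73.0%), and over all genes tested it was in 30.2%. LPS + GSK-J4 replicate 3 was the highest of its group in 35 genes (94.6%), and over all genes in 42.3%. Both held for 25 genes (67.6%), beside 11.7% over all genes. The exceptions for LPS + GSK-J4 replicate 3 were Col15a1 and Postn. In 10 of the 37 genes (27.0%, beside 0.168% of all genes) both libraries stood over 2-fold above the mean of the other libraries of their group on the log2(CPM + 1) scale. Across the 37 genes the log2 distance of GSK-J4 replicate 1 from its group and that of LPS + GSK-J4 replicate 3 from its group had a Pearson r of 0.521 (Spearman rho 0.559), and over all genes tested r was -0.0607. The 2 libraries were singled out by the levels of these same genes. The counts of highest libraries and of 2-fold distances therefore follow in part from that choice and are no test. The correlations run across genes that share the same libraries and are no test either.

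**Figure D3:**
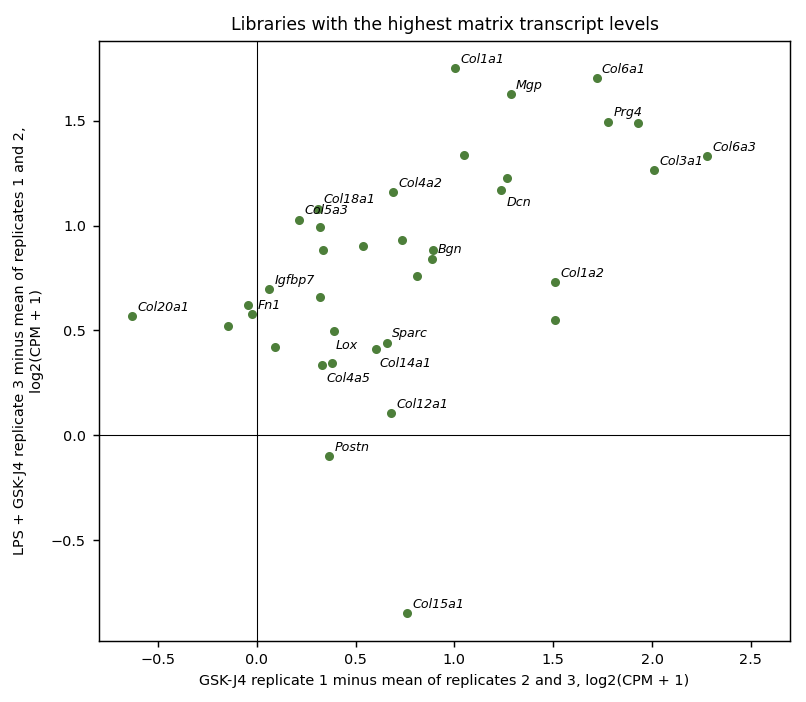
For each of the 37 tested matrix genes, the log2(CPM + 1) of GSK-J4 replicate 1 minus the mean of replicates 2 and 3 (x axis) and of LPS + GSK-J4 replicate 3 minus the mean of replicates 1 and 2 (y axis), with some genes labelled. Most points lie in the upper right, with Col6a3 and Col3a1 farthest right and Col1a1 and Col6a1 highest, while Igfbp7 and Fn1 lie near 0 on the x axis.

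Igfbp7 and Col3a1 both had LPS + GSK-J4 replicate 3 as the highest of its group but differed over the GSK-J4 libraries. Igfbp7 was even over these, while Col3a1 had 4.87 times as much in GSK-J4 replicate 1 as in replicate 2. Their start windows are shown for this contrast, in the same notation and with the TATA box TATAAA also in capitals (Igfbp7 chr5:77407996-77408295, minus strand, and Col3a1 chr1:45311288-45311587, plus strand).
Igfbp7: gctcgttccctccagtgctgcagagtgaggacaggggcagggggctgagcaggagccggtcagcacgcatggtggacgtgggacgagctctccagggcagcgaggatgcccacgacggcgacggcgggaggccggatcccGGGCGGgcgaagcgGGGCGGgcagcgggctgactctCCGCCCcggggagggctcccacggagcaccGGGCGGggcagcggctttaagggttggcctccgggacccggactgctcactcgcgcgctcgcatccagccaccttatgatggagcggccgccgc
Col3a1: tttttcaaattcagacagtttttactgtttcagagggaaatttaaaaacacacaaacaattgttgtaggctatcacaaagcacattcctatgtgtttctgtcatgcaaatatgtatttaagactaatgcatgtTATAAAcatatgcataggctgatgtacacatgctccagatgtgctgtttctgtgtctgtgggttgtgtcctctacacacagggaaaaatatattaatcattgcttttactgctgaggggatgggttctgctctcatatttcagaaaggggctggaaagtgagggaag
The Igfbp7 window holds 4 GC boxes and the Col3a1 window none, but 1 TATA box. Col1a2 and Col6a1 also had GSK-J4 replicate 1 above the others of its group, by 1.51 and 1.72 on the log2(CPM + 1) scale. Their windows differ from that of Col3a1, with 2 GC boxes and 0 TATA boxes for Col1a2 and 0 of either for Col6a1. A link between these boxes and the spread between libraries was not tested. Of the 57 genes, 42 had a window in the RefSeq table, 47 windows in all. A GC box was present in 59.6% of these 47 and in 35.7% of all 32851 windows of the table, a CCAAT box in 29.8% and 37.4%, and a TATA box in 12.8% and 13.6%.

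Lists of genes that act on collagens were read from the same fit. Of 29 genes for collagen modification and processing, 22 were tested, 8 rose and 1 fell at adjusted p ≤ 0.05, with a median log2 fold change of 0.34, beside the 13.7% and 9.91% of all genes. Tgm2, a transglutaminase that cross-links matrix proteins, rose from 194, 173 and 169 CPM to 308, 315 and 405 CPM (log2 fold change 0.94, adjusted p = 5.93e-05 by edgeR). Plod1, a lysyl hydroxylase, fell from 126, 119 and 120 CPM to 62.8, 73.7 and 88.4 CPM (-0.70, adjusted p = 0.00146). The prolyl hydroxylase subunits P4hb and P4ha1 had log2 fold changes of 0.08 and -0.01 and did not pass the test. Of 15 genes for collagen and fibronectin receptors, 12 were tested, 5 rose and 0 fell, with a median of 0.47. Cd44, a hyaluronan receptor that also binds collagen and fibronectin, rose from 543, 574 and 477 CPM to 946, 995 and 890 CPM (0.83, adjusted p = 3.85e-05). Itga5, the alpha chain of the fibronectin receptor, rose from 195, 176 and 196 CPM to 336, 410 and 556 CPM (1.20, adjusted p = 2.93e-05). Differences between these medians and that of the matrix genes were not tested.

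TGF-beta signalling controls many matrix genes in fibroblasts, and of 22 genes of this pathway, all tested, 7 rose and 3 fell, with a median log2 fold change of 0.08, where 13.7% of all genes rose and 9.91% fell. The genes that rose included Ctgf (1.08) and Thbs1 (0.55), and Ltbp2, a latent TGF-beta binding protein, was up-regulated past both thresholds (1.67, adjusted p = 0.00218 by edgeR). The genes that fell were Smad3 (-0.91), Smad6 (-0.64) and Smad7 (-0.61). The levels of Smad3 were 25.7, 25.1 and 34.8 CPM in GSK-J4 and 12.9, 14.1 and 18.2 CPM in LPS + GSK-J4.

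The summed levels of 5 marker lists for cells other than microglia were higher in LPS + GSK-J4, although not every marker was detected or rose. Beside the counts below, 13.7% of all genes tested were higher and 9.91% lower at adjusted p ≤ 0.05. Fibroblast and mural cell markers (18 genes, 8 tested, 4 of them higher at adjusted p ≤ 0.05) summed to 197 to 269 CPM in GSK-J4 and 406 to 619 CPM in LPS + GSK-J4. Tagln, Acta2 and Cspg4, which made up most of this sum, rose by 1.31, 1.36 and 1.13 on the log2 scale. Prrx1 also rose (1.31, adjusted p = 0.0158 by edgeR), while Pdgfrb, Foxc1, Tbx18 and Aldh1a2 did not pass the test (adjusted p of 0.116 to 0.695). Of the markers below the filter, Pdgfra and Islr had means of 2.36 and 2.64 CPM in GSK-J4 and 2.38 and 2.51 CPM in LPS + GSK-J4. Cnn1, Twist1 and Osr1, also below it, had higher means in LPS + GSK-J4. Pdgfrb, a marker of pericytes and fibroblasts, had 19.4, 8.30 and 7.33 CPM against 6.63, 11.8 and 34.3 CPM, with GSK-J4 replicate 1 and LPS + GSK-J4 replicate 3 the highest of their groups, while the pericyte markers Rgs5 and Kcnj8 were at 0 in all libraries. Endothelial markers (10 genes, 2 tested, 1 higher) summed to 16.8 to 23.8 CPM against 29.7 to 64.4 CPM. Cdh5 was up-regulated (1.5, adjusted p = 0.00312) and made up most of this sum, at 15.3, 9.88 and 11.7 CPM against 17.2, 34.0 and 54.5 CPM. Flt1 did not pass the test (0.61, adjusted p = 0.22). Kdr had means of 2.47 and 2.61 CPM and Pecam1 of 1.01 and 0.79 CPM, and Cldn5, Ly6c1 and Emcn were at 0 in all libraries. Astrocyte markers (11 genes, 9 tested, 5 higher) summed to 62.3 to 66.4 CPM against 152 to 181 CPM, oligodendrocyte lineage markers (8 genes, 7 tested, 4 higher) to 151 to 182 CPM against 267 to 296 CPM, and neuron markers (6 genes, 3 tested, 3 higher) to 19.6 to 23.8 CPM against 46.7 to 52.7 CPM. Microglia markers (12 genes, 11 tested, 4 lower) summed to less in LPS + GSK-J4, and Csf1r fell from 767, 747 and 759 CPM to 540, 503 and 605 CPM (-0.46, adjusted p = 0.00450). The part of these cells in the matrix gene values was not tested. In bulk libraries, a change in the number of cells of a type and a change in RNA per cell cannot be told apart.

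GSK-J4 replicate 1 was not set apart by astrocyte, oligodendrocyte or neuron markers as it was by the matrix genes. It was the highest of its group in 7 of 8 tested fibroblast and mural cell markers, in 2 of 9 astrocyte markers and in 0 of 7 oligodendrocyte lineage and 0 of 3 neuron markers. LPS + GSK-J4 replicate 3 was the highest of its group in 5 of 8, 4 of 9, 4 of 7 and 0 of 3 of the same lists. Over all genes tested the shares were 30.2% and 42.3%. Among 22 tested genes for collagen modification and processing the counts were 16 (72.7%) and 18 (81.8%). Both held in 59.1% of those, so this order of the libraries was not confined to the matrix genes. The distances were smaller there, with medians of 0.23 and 0.38 on the log2(CPM + 1) scale, beside 0.68 and 0.84 for the matrix genes. Both libraries stood over 2-fold above the others in 0 of these 22 genes, beside 10 of 37 matrix genes. For collagen and fibronectin receptors the counts were 3 and 6 of 12, and for the TGF-beta pathway 7 and 15 of 22.

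**Figure D4:**
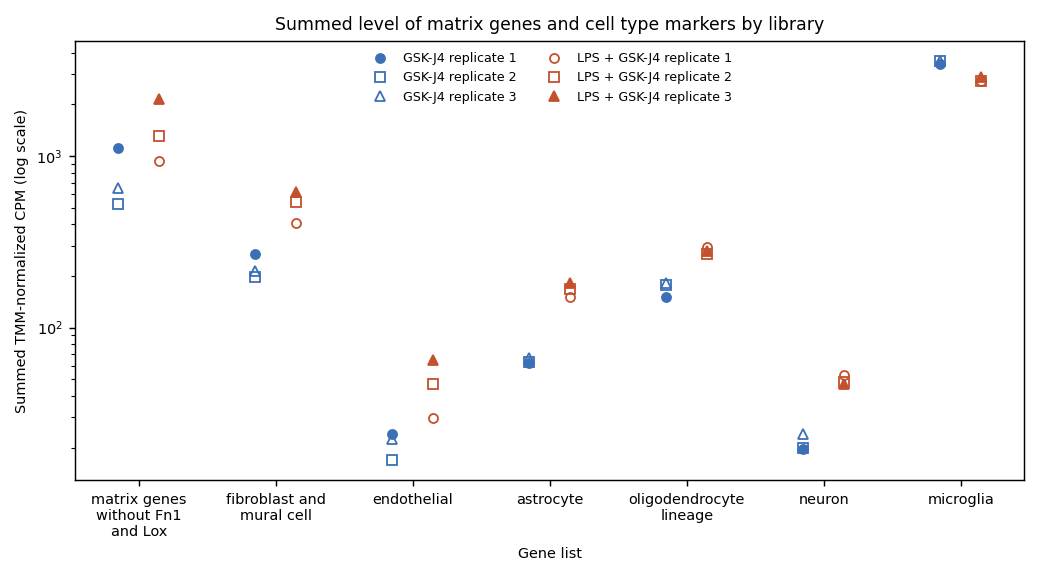
Summed TMM-normalised CPM (log scale) of the matrix genes without Fn1 and Lox and of 6 marker lists in each library, with GSK-J4 in blue and LPS + GSK-J4 in red and with filled symbols for GSK-J4 replicate 1 and LPS + GSK-J4 replicate 3. The groups overlap for the matrix genes and do not overlap for any of the 6 marker lists, of which microglia markers alone were lower in LPS + GSK-J4.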

How the data were processed

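PM were sequenced in 6 libraries, grouped by their titles in the labels. Per the labels and the study's methods, the authors depleted ribosomal RNA, prepared directional paired-end libraries, trimmed reads with Trimmomatic 0.33, aligned them to mm10 with STAR 2.5.1 and deposited raw counts per gene without normalization. The reverse-strand counts were used, and the 4 tally lines per table were left out. Genes were filtered with filterByExpr (minimum count 10, minimum total 15), scaled by TMM and tested with the robust quasi-likelihood test of edgeR 4.0.16 in R 4.3.3 without covariates. Benjamini-Hochberg adjustment ran over the 10133 genes tested. The standard error of a log2 fold change was its size over the square root of the F statistic of that test. Errors marked SD are over 3 libraries. The model was tested on simulated data, in which each gene was drawn independently with its own dispersion. At true log2 fold changes of -3, -2, 2 and 3 it called 44 of 48, 45 of 59, 40 of 40 and 53 of 53 genes. Of 9933 unchanged genes it called 1. A library that deviates in many genes together was not simulated. Alternatives were unstranded counts, other scaling and filters, DESeq2 1.42.0, a replicate block and left-out libraries. The members, gene lists and tests were chosen with earlier results of these data known. Full values are given for members at adjusted p ≤ 0.05 and the 10 with the highest mean CPM, and others named were chosen after their values were seen. Gene positions and transcript lengths come from GENCODE vM21 (mm10). The limit of 3 for a count of 0 covers counting error only, while standard errors and SD include the spread between libraries.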

Additional observations from a re-analysis of the deposited data

Results flagged for a closer look

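Counts on the strand opposite to a gene were not used in the comparison. For Col4a4 they were 3, 4 and 0 in GSK-J4 and 3, 0 and 2 in LPS + GSK-J4, 12 in all, where the sense strand had 2. Other members also had such counts. Col10a1 had 9 on the opposite strand and 0 on its own, and Col18a1 had 13 on the opposite strand in LPS + GSK-J4 replicate 3. Whether any of these counts stands above background was not tested. Col4a3 starts 72 bases away on the opposite strand and had 12 counts on its own strand.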

How the results depend on the processing

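The count of genes called higher, 1 with all libraries, was 0 by the DESeq2 Wald test, 0 with library totals without Rn45s, Mir6236 and Lars2, 0 to 7 without single libraries, 3 without GSK-J4 replicate 1 and LPS + GSK-J4 replicate 3 together, and 12 at adjusted p ≤ 0.05 and log2 fold change ≥ 1. Over the 10133 genes of the main fit, 299 were called higher with all libraries, 250 by the DESeq2 Wald test and 271 to 374 without single libraries. The share of all genes was not counted at adjusted p ≤ 0.05 and log2 fold change ≥ 1. Without a filter the gene called was Col9a3, and Igfbp7 stood at 1.47. The library totals and the left-out pair were chosen after seeing the data. With the replicate number as a block (replicate block) the count of matrix genes called higher was 0, as Igfbp7 stood at 1.48. At adjusted p ≤ 0.05 16 of the 17 genes were shared, with Bgn lost (1.33, adjusted p = 0.253) and Col5a3 gained. By DESeq2 12 of the 17 were shared, with Col27a1, Col4a6, Col5a2, Col7a1 and Postn lost and Col9a3 gained. The correlations of same-numbered libraries were -0.0102, 0.117 and 0.295, and not every library correlated best with its own number, so the numbers were not taken as pairs. No matrix gene was lower at adjusted p ≤ 0.05 under any alternative, and the count of matrix genes higher was 12 to 25. Shares of all genes at this threshold were counted only for all libraries and for the left-out pair. Col3a1 ran from -0.0641 without LPS + GSK-J4 replicate 3, a reversal, to 1.5 without GSK-J4 replicate 1. Of 314 values of the 21 genes described in full, 271 kept direction and side of the threshold, 34 lost it, 8 gained it and 1 reversed. The median over all genes stayed between -0.0546 and 0.00601. The causes of these changes were not tested. The filter on low counts left 20 genes untested.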
